A study of Mus musculus with 60 samples.

Results

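The genes described here are 10 markers of the pyramidal and hilar neurons that lie beside the granule cell layer of the mouse dentate gyrus (DG). *Fibcd1*, *Wfs1* and *Mpped1* stood for CA1 pyramidal cells, *Ociad2*, *Bok*, *Iyd*, *Coch* and *Spock1* for CA3 pyramidal cells, and *Calb2* and *Ajap1* for mossy cells. They were picked by name as known markers, with earlier results of these data known. All 10 were found among the 46480 genes counted in these samples and among the 17040 with enough counts to be tested. Whole tissue was taken with a fine puncher from the dorsal DG in coronal slices and from the ventral DG in horizontal slices of frozen brain, so region and slicing plane cannot be told apart. The mice were male C57BL6J, weaned on day 22, kept for 8 weeks in standard housing (SH, 3 males to a cage) or an enriched environment (EE, 12 males in a large cage with toys and running wheels), and 80 days old at collection. There were 5 RNA-Seq samples for each region in each housing, which makes 4 groups, and each sample came from a pool of 10 to 12 mice, and the dorsal and ventral samples of a replicate number came from the same mice.

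The hippocampus is built as a relay of principal neurons. Granule cells of the DG send mossy fibers to CA3 pyramidal cells and to mossy cells of the hilus, CA3 pyramidal cells project to CA1, and mossy cells project back to granule cells. CA3 pyramidal cells reach into the hilus between the blades of the DG, and CA1 lies across the hippocampal fissure from it, so a punch of the DG can hold either. The dorsal and ventral poles of each field have their own gene expression, and markers of a cell type can also mark its position along this axis.

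Values of SH replicate 3 are left out of group values and tests in both regions, because its samples had *Xist* counts of 789 and 308 against at most 16 in any other sample, although the mice were male. The other 18 samples came from 9 pools (4 SH, 5 EE) and had 22919364 to 28301861 fragments counted on genes (median 25816352). Markers of granule cells, the principal cells of the DG, were present in each sample, with *Prox1* at 208 to 274 CPM on the dorsal side and at 105 to 146 CPM on the ventral side. CPM gives the fragments of a gene per 1000000 fragments counted, after TMM normalization. Dorsal SH replicate 1 stood apart from the other dorsal samples in the summed level of 8 choroid plexus genes, which was 211 CPM against 23.3 to 70.2 CPM in the rest. In the ventral samples that sum was 391 to 1432 CPM.

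Of the 10 markers, 7 differed between dorsal and ventral DG over both housings, at a false discovery rate (FDR) under 0.05 in edgeR's quasi-likelihood test with a fold change of at least 20%. *Wfs1* and *Iyd* were higher in dorsal DG, and *Fibcd1*, *Mpped1*, *Ociad2*, *Spock1* and *Calb2* were higher in ventral DG. Among all tested genes 32.7% passed the same limits, 15.9% with the higher level in dorsal and 16.8% with the higher level in ventral DG. Without regard to sign, log2 fold changes had a median of 0.43 over the markers and 0.19 over all tested genes. Levels did not overlap between the 9 dorsal and 9 ventral samples for 3 of the 10 markers and for 18.9% of all tested genes. The markers of a cell type did not share a direction, in CA1, in CA3 or in mossy cells. In tissue of this kind fewer cells of a type and less RNA per cell cannot be told apart.

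**Figure D1:**
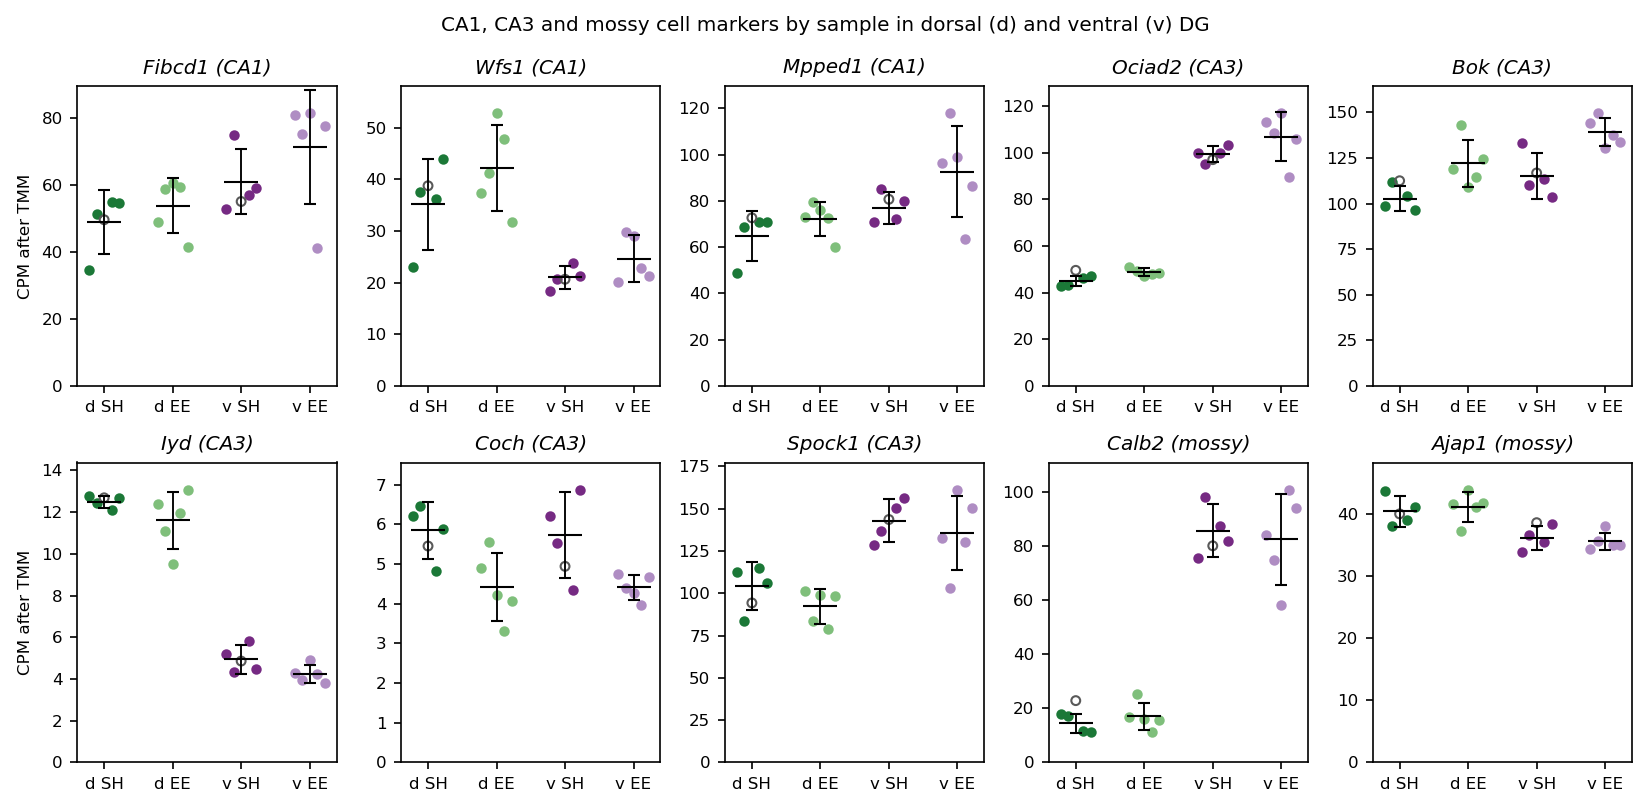
Level of each marker in CPM after TMM normalization (vertical axis) in the 4 groups, with d for dorsal and v for ventral DG. Filled points are samples in order of replicate number, open circles are SH replicate 3, and horizontal lines with bars are the mean and SD of the filled points; *Calb2* and *Ociad2* lie higher and *Iyd* lower in each ventral sample than in any dorsal one.

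*Fibcd1* encodes a membrane receptor with a fibrinogen-like domain and lies on chromosome 2, 31813290 to 31846005, minus strand (mm10). In dorsal SH its levels were 34.7, 51.4, 55.0 and 54.7 CPM in replicates 1, 2, 4 and 5, and in dorsal EE they were 48.9, 58.7, 60.5, 59.5 and 41.6 CPM in replicates 1 to 5. Ventral SH samples had 52.8, 75.1, 57.0 and 59.2 CPM, and ventral EE samples had 80.9, 75.3, 81.4, 41.3 and 77.6 CPM. The ventral sample was the higher in 8 of 9 pools, and the exception was EE pool 4. The regions overlapped, with a dorsal mean of 51.7 ± 8.71 CPM and a ventral mean of 66.7 ± 14.5 CPM (SD, n = 9), and the log2 fold change of dorsal over ventral was -0.36 with a standard error (SE) of 0.12 (FDR = 0.010, edgeR).

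*Wfs1* encodes wolframin, a protein of the endoplasmic reticulum membrane, and lies on chromosome 5, 36966104 to 36989205, minus strand. Its levels were 22.98, 37.6, 36.2 and 43.9 CPM in dorsal SH and 37.4, 41.2, 52.8, 47.8 and 31.8 CPM in dorsal EE. In ventral DG they were 18.4, 20.6, 23.8 and 21.3 CPM in SH and 20.1, 29.9, 29.1, 22.8 and 21.3 CPM in EE. Each of the 9 pools had the higher level in its dorsal sample. Dorsal SH replicate 1, at 22.98 CPM, was the only dorsal sample within the ventral range, and *Wfs1* was 1.69-fold higher in dorsal DG (log2 fold change 0.76, SE 0.11, FDR = 4.7e-06, edgeR).

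*Mpped1*, a gene for a metallophosphoesterase domain protein on chromosome 15, 83779467 to 83858494, plus strand, had the smallest regional difference of the CA1 markers. Dorsal levels were 48.7, 68.7, 71.1 and 70.8 CPM in SH and 73.1, 79.7, 76.2, 72.7 and 60.2 CPM in EE. Ventral levels were 70.8, 85.2, 72.0 and 79.9 CPM in SH and 96.3, 118, 98.9, 63.7 and 86.6 CPM in EE. As for *Fibcd1*, 8 of 9 pools had the higher level in ventral DG and EE pool 4 did not. The log2 fold change was -0.30 (SE 0.09, FDR = 0.0064, edgeR), and it fell below the 20% limit without SH replicate 1 (-0.26) or without its dorsal sample alone (-0.24).

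The 3 CA1 markers therefore did not move as a group. Of 2 other CA1 genes, *Pou3f1* and *Man1a*, only the first passed. *Pou3f1*, a POU domain transcription factor, was 1.74-fold higher in dorsal DG (log2 fold change 0.80, SE 0.14, FDR = 4.1e-05, edgeR). *Man1a* did not pass both limits, with a log2 fold change of -0.18 (SE 0.06).

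*Ociad2*, on chromosome 5, 73322199 to 73341028, minus strand, encodes an OCIA domain protein. Its levels were 42.7, 43.4, 46.4 and 47.3 CPM in dorsal SH and 51.1, 49.4, 47.1, 47.8 and 48.4 CPM in dorsal EE. Ventral samples had 99.8, 95.1, 99.8 and 103 CPM in SH and 113, 108, 117, 89.6 and 106 CPM in EE. No ventral sample came near the dorsal range, and *Ociad2* was 2.20-fold higher in ventral DG (log2 fold change -1.14, SE 0.04, FDR = 1.0e-15, edgeR). Over the 9 pools the log2 difference of dorsal and ventral samples ran from -1.31 to -0.91.

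*Iyd* encodes iodotyrosine deiodinase, which recovers iodide in the thyroid, and lies on chromosome 10, 3540240 to 3554877, plus strand. Dorsal levels were 12.8, 12.5, 12.1 and 12.7 CPM in SH and 12.4, 11.1, 9.51, 11.9 and 13.1 CPM in EE. Ventral levels were 5.19, 4.32, 5.84 and 4.46 CPM in SH and 4.31, 3.94, 4.90, 4.25 and 3.82 CPM in EE. The regions did not overlap, and the direction was opposite to that of *Ociad2*. *Iyd* was 2.63-fold higher in dorsal DG (log2 fold change 1.40, SE 0.07, FDR = 1.2e-13, edgeR).

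*Spock1*, on chromosome 13, 57421195 to 57908332, minus strand, encodes the proteoglycan testican-1. It was measured at 113, 83.8, 115 and 106 CPM in dorsal SH and at 101, 83.8, 99.1, 78.9 and 98.3 CPM in dorsal EE. Ventral samples had 128, 137, 150 and 156 CPM in SH and 133, 103, 161, 130 and 151 CPM in EE. Within each housing the regions did not overlap, although ventral EE replicate 2 (103 CPM) lay inside the range of dorsal SH. *Spock1* was 1.42-fold higher in ventral DG and higher there in 9 of 9 pools (log2 fold change -0.51, SE 0.08, FDR = 6.3e-06, edgeR).

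*Bok* and *Coch* did not pass both limits. *Bok*, a member of the Bcl-2 family of apoptosis regulators on chromosome 1, 93685660 to 93695764, plus strand, was at 96.6 to 143 CPM in dorsal DG (median 112) and at 104 to 150 CPM in ventral DG (median 133). Its log2 fold change of -0.18 (SE 0.05, FDR = 0.0058, edgeR) was below the 20% limit, with the higher level in ventral DG in 8 of 9 pools. *Coch*, the gene of the extracellular matrix protein cochlin on chromosome 12, 51593341 to 51605771, plus strand, ran from 3.30 to 6.46 CPM in dorsal samples and from 3.98 to 6.87 CPM in ventral ones. The dorsal sample was the higher in 4 pools and the ventral sample in 5 (log2 fold change 0.01, SE 0.09, FDR = 0.93, edgeR). *Coch* had the fewest fragments of the markers, 81 to 188 in a sample. In the 18 samples used, 5.37% of its fragments were counted on the opposite strand, against at most 0.52% for the other markers.

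Among 4 other CA3 markers, all were higher in ventral DG. *Socs2*, a suppressor of cytokine signaling, had a log2 fold change of -0.92 (SE 0.06, FDR = 3.5e-11, edgeR). *Grik4*, a kainate receptor subunit, had one of -0.52, and *Elavl2*, an RNA-binding protein, one of -0.43. *Npy2r*, a receptor of neuropeptide Y, was at -0.42. The FDR of these 3 was at most 5.0e-06 (edgeR). Their summed level was 172 to 233 CPM in dorsal and 251 to 317 CPM in ventral samples, without overlap.

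Of 7 markers of CA2, the small field between CA1 and CA3, 4 had the higher level in dorsal DG and 2 had it in ventral DG. Among all tested genes these shares were 15.9% and 16.8%. The largest dorsal differences were those of *Cacng5*, a calcium channel gamma subunit family member (log2 fold change 1.19, SE 0.07), *Map3k15*, a kinase (0.78, SE 0.17), and *Ntf3*, the gene of neurotrophin-3 (0.68, SE 0.08). The ventral ones were *Necab2*, a calcium-binding protein (-1.20, SE 0.06), and *Amigo2*, an adhesion protein (-0.88, SE 0.07). All 5 had an FDR of at most 0.00040 in edgeR's test.

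*Calb2* had the largest regional difference of the markers. It encodes calretinin, a calcium-binding protein of some mossy cells that is also found in Cajal-Retzius cells, some interneurons and young granule cells. The gene lies on chromosome 8, 110137502 to 110168210, minus strand. Its levels were 17.9, 17.2, 11.5 and 11.1 CPM in dorsal SH and 16.9, 25.2, 16.1, 11.4 and 15.8 CPM in dorsal EE. Ventral levels were 75.6, 98.5, 87.4 and 81.9 CPM in SH and 84.2, 75.2, 58.3, 101 and 94.2 CPM in EE. The lowest ventral sample was above the highest dorsal sample by a wide margin. *Calb2* was 5.36-fold higher in ventral DG (log2 fold change -2.42, SE 0.13, FDR = 2.8e-13, edgeR). *Ajap1*, the other mossy cell marker, did not share this difference, and whether *Calb2* marks mossy cells alike at both poles was not tested.

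Lists of other cell types known for calretinin held genes that passed in different directions. The 5 immature granule cell genes were all higher in dorsal DG, with a median log2 fold change of 0.54. Of 4 Cajal-Retzius genes tested 1 was higher in dorsal and 0 in ventral DG, and the summed level was 110 to 152 CPM in dorsal and 105 to 131 CPM in ventral samples. Of 7 genes of GABAergic interneurons 3 were higher in ventral and 0 in dorsal DG, with a median over the list of -0.23. Among all tested genes 15.9% passed with the higher level in dorsal and 16.8% with the higher level in ventral DG. Counts of 1 of 4 and 3 of 7 genes are too small to give these lists a direction. The part of these cells in the level of *Calb2* was not tested.

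*Ajap1*, an adherens junction-associated protein on chromosome 4, 153373221 to 153482811, minus strand, was nearly even between the regions and went the other way. It ran from 37.3 to 43.9 CPM in dorsal DG (median 41.1) and from 33.8 to 38.4 CPM in ventral DG (median 35.4). The dorsal sample was the higher in 9 of 9 pools, but the log2 fold change of 0.19 (SE 0.04, FDR = 0.00020, edgeR) was below the 20% limit. Among 5 other mossy cell genes, *Nmb*, which encodes the peptide neuromedin B, was higher in dorsal DG (log2 fold change 0.72, SE 0.08, FDR = 1.0e-07, edgeR). *Tm4sf1*, a membrane protein also known from endothelium, was higher in ventral DG (-0.69, SE 0.07, FDR = 1.4e-08, edgeR). The remaining 3, *Calcrl*, *Drd2* and *Csf2rb2*, did not pass both limits.

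**Figure D2:**
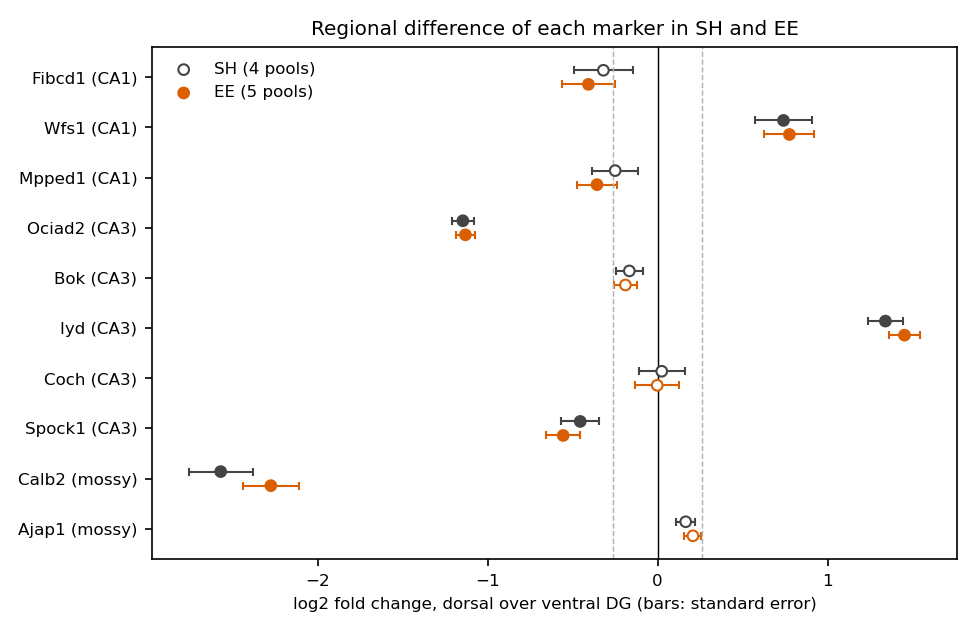
Log2 fold change of dorsal over ventral DG (horizontal axis) for each marker in SH (grey, 4 pools) and EE (orange, 5 pools), with the SE from edgeR as bars. Filled points passed an FDR under 0.05 and the 20% limit, which dashed lines mark; 5 are filled in SH and 7 in EE, and the points of a marker lie on the same side of 0 in both housings except for *Coch*.

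Within SH alone 5 markers passed (*Wfs1*, *Ociad2*, *Iyd*, *Spock1* and *Calb2*), against 28.3% of all tested genes. Within EE alone 7 passed, against 29.8%, and the added ones were *Fibcd1* and *Mpped1*. Their log2 fold changes were -0.32 (SE 0.17, FDR = 0.15) and -0.25 (SE 0.13, FDR = 0.14) in SH, and -0.41 (SE 0.15, FDR = 0.034) and -0.36 (SE 0.12, FDR = 0.018) in EE. The difference of the EE effects between the regions passed for 0 of the 10 markers in edgeR and in DESeq2, with 0 at an unadjusted p under 0.05 and 0.00587% of all tested genes called, so the calls of *Fibcd1* and *Mpped1* in EE alone are not shown to differ from SH. Both calls were lost without EE replicate 1, 3 or 5, with an FDR of 0.15, 0.076 and 0.18 for *Fibcd1* and 0.058, 0.053 and 0.061 for *Mpped1*, and the call of *Fibcd1* was also lost in DESeq2 (FDR = 0.066).

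No marker passed between EE and SH in the model without a block. In dorsal DG 0 of 10 and in ventral DG 0 of 10 passed in edgeR's test, and DESeq2 called 0 in either region. At an unadjusted p under 0.05 there were 2 in dorsal DG (*Bok* and *Coch*) and 3 in ventral DG (*Bok*, *Coch* and *Mpped1*). Among all tested genes 0.634% were called in dorsal DG and 0.241% in ventral DG. Samples of SH and EE overlapped for all 10 markers in both regions, whereas they did not overlap for 3.99% of all tested genes in dorsal and 2.45% in ventral DG.

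*Bok* and *Coch* had the lowest p values of the markers in either region, in opposite directions. *Bok* was at 96.6 to 112 CPM in dorsal SH and 109 to 143 CPM in dorsal EE, and at 104 to 133 CPM in ventral SH and 131 to 150 CPM in ventral EE. Its log2 fold change of EE over SH was 0.25 (SE 0.07, FDR = 0.17, edgeR) in dorsal and 0.27 (SE 0.07, FDR = 0.19, edgeR) in ventral DG, and the latter passed when no filter on low counts was used (FDR = 0.047, edgeR). *Coch* was at 4.83 to 6.46 CPM in dorsal SH and 3.30 to 5.55 CPM in dorsal EE, and at 4.34 to 6.87 CPM in ventral SH and 3.98 to 4.74 CPM in ventral EE. Its log2 fold change was -0.41 (SE 0.13, FDR = 0.24, edgeR) in dorsal and -0.38 (SE 0.13, FDR = 0.40, edgeR) in ventral DG.

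The CA1 markers had log2 fold changes of EE over SH between 0.14 and 0.26 in dorsal DG and between 0.22 and 0.27 in ventral DG, with SEs of 0.13 to 0.17 and an FDR of at least 0.65. *Calb2* was at 0.24 (SE 0.19) in dorsal and -0.05 (SE 0.16) in ventral DG. *Ajap1* was within 0.03 of 0 in both regions (SE 0.05). Of the other CA1, CA2 and CA3 markers none passed in either region, with 13 genes tested. Of the other mossy cell markers *Nmb* passed in dorsal DG, with 3.16 to 3.72 CPM in SH and 4.42 to 5.22 CPM in EE (log2 fold change 0.51, SE 0.11, FDR = 0.021, edgeR).

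Single samples deviated from their groups most in *Calb2* and the CA1 markers. The SD of log2 CPM within groups was 0.33 for *Calb2*, 0.31 for *Fibcd1*, 0.29 for *Wfs1* and 0.24 for *Mpped1*, against a median of 0.13 over all tested genes. *Ociad2* (0.09) and *Ajap1* (0.08) varied less than that median, and *Bok* (0.12) was close to it. *Coch* (0.22), *Spock1* (0.19) and *Iyd* (0.15) lay above it. The share of all tested genes with a smaller SD was 82.6% for *Calb2*, 81.3% for *Fibcd1* and 79.4% for *Wfs1*. It was 74.7% for *Mpped1* and 73.4% for *Coch*, so many other genes varied as much.

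**Figure D3:**
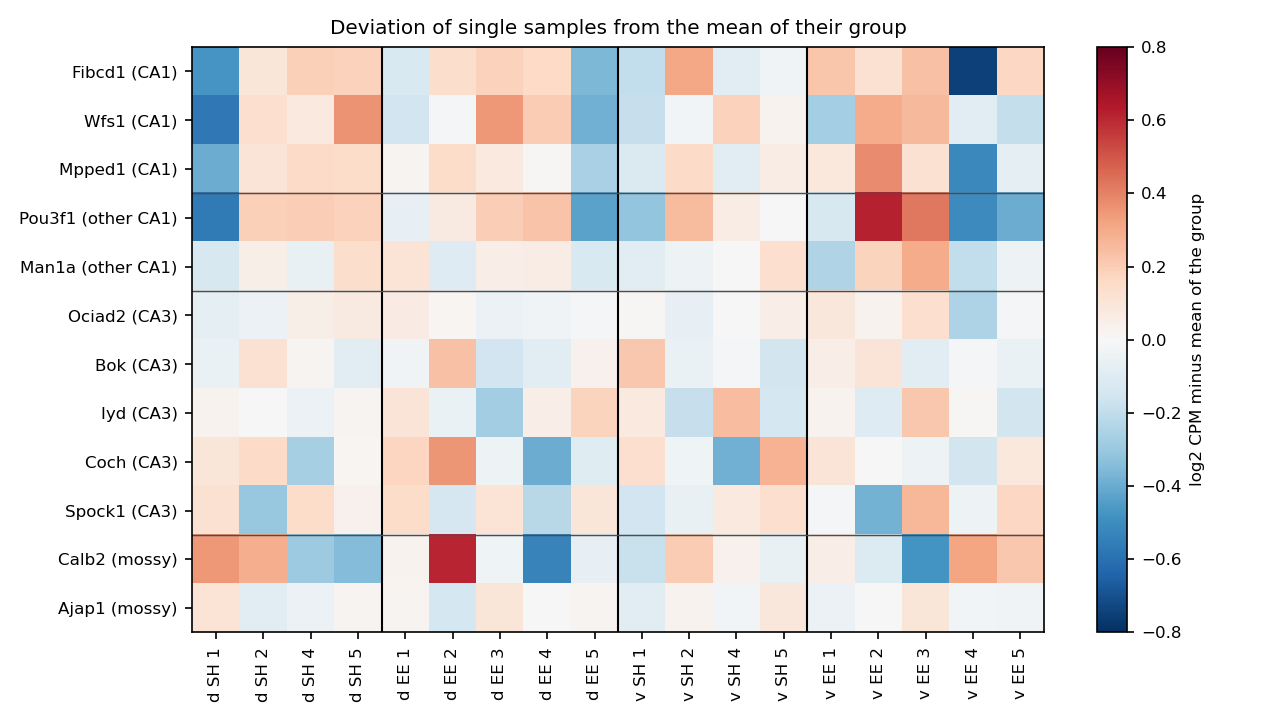
Difference of log2 CPM from the mean of the group (color) for the 10 markers and 2 other CA1 markers (rows) in 18 samples (columns, d dorsal and v ventral, vertical lines between groups). Dorsal SH replicate 1, dorsal EE replicate 5, ventral SH replicate 1 and ventral EE replicate 4 are blue in *Fibcd1*, *Wfs1*, *Mpped1* and *Pou3f1*. The color is faint for *Mpped1* in ventral SH replicate 1 (-0.12) and for *Wfs1* in ventral EE replicate 4 (-0.09). In ventral EE *Wfs1* was lower in replicate 1 (-0.27).

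The low samples of the CA1 markers were shared. *Fibcd1*, *Wfs1* and *Mpped1* all had their lowest level of the group in dorsal SH replicate 1, dorsal EE replicate 5 and ventral SH replicate 1. The 2 other CA1 markers had their lowest level in the same 3 samples. In ventral EE, *Fibcd1*, *Mpped1* and *Pou3f1* were lowest in replicate 4, and *Wfs1* and *Man1a* were lowest in replicate 1. These samples were noted for their CA1 levels, and they were not compared with the rest as a group.

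Dorsal SH replicate 1 was the farthest of the low samples in dorsal DG. The other dorsal SH samples exceeded it 1.55-fold in *Fibcd1*, 1.70-fold in *Wfs1*, 1.44-fold in *Mpped1* and 1.69-fold in *Pou3f1*. *Pou3f1* was at 7.71 CPM there and at 13.0 to 13.1 CPM in the rest of the group. *Man1a* was low by a smaller margin, at 28.3 CPM against 29.6 to 34.1 CPM. The CA3 markers were mixed there, with *Iyd* at 12.8 CPM, the highest of the group, *Spock1* at 113 CPM, inside the range of the rest, and *Ociad2* at 42.7 CPM, the lowest of a narrow group. The sample was also the one with high choroid plexus genes (211 CPM) and had the highest summed level of 6 genes of habenula and thalamus among the 9 dorsal samples used (102 CPM against 66.8 to 96.0 CPM). Of these 9 samples it also had the highest sums of granule cell genes (1455 CPM) and of the other CA3 genes (233 CPM), and the lowest sum of endothelial genes (125 CPM). The part of these cells and tissues in its levels was not tested.

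In ventral EE replicate 4, *Fibcd1* was 1.91-fold and *Mpped1* 1.56-fold below the other ventral EE samples, and *Ociad2* had the lowest ventral level, at 89.6 CPM. The same sample had the highest *Calb2* of all samples (101 CPM) and the highest summed level of 8 granule cell genes in ventral DG, at 759 CPM against 535 to 749 CPM. Its dorsal partner of the same number was not low in *Fibcd1* (59.5 CPM). EE pool 4 was thus the pool in which the regional difference of *Fibcd1* and *Mpped1* was turned around. Without EE pool 4 both remained higher in ventral DG and the count of markers that passed stayed at 7.

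Ventral EE replicate 3 lay at the other end of the ventral samples in *Calb2*, *Fibcd1*, *Ociad2* and the granule cell sum. It had the lowest ventral *Calb2* (58.3 CPM) and the highest ventral *Fibcd1*, *Ociad2* and *Spock1* (81.4, 117 and 161 CPM). Its granule cell sum was the lowest of all samples (535 CPM) and its choroid plexus sum the highest (1432 CPM). The contrast did not hold throughout, as the choroid plexus sum of ventral EE replicate 4 was high too (931 CPM). *Mpped1* was highest in ventral EE replicate 2 (118 CPM). In the 9 dorsal samples used *Calb2* was highest in EE replicate 2 (25.2 CPM), with a sum of habenula and thalamus genes of 96.0 CPM, after that of SH replicate 1 (102 CPM), where *Calb2* was at 17.9 CPM. EE replicate 4 had the lowest such sum (66.8 CPM) and a *Calb2* level of 11.4 CPM, and SH replicate 5, with the lowest dorsal *Calb2* (11.1 CPM), had a sum of 83.9 CPM. The part of these cells in the levels of *Calb2* was not tested.

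SH replicate 3, which was left out, had dorsal levels above the range of the other dorsal SH samples in 4 markers. These were *Calb2* (22.9 CPM), *Ociad2* (49.5 CPM), *Bok* (112.5 CPM) and *Mpped1* (72.7 CPM). Levels of SH replicate 3 came from TMM over all 20 samples and the ranges from TMM over 18. The margin was small for *Bok* and *Mpped1*, where the other dorsal SH samples reached 111.6 and 71.1 CPM. In SH replicate 3 the dorsal sum of habenula and thalamus genes, 118 CPM, was above that of each of the 9 dorsal samples used. Its ventral sample was above the range in *Ajap1* (38.6 CPM, against up to 38.4 CPM) and inside it in the other 9.

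Levels of different genes were compared as TPM, which takes transcript length into account, and only by their order within a sample. *Bok* was the first of the 10 in each of the 18 samples (31.9 to 50.5 TPM) and *Coch* the last (0.50 to 1.57 TPM). In dorsal DG *Spock1*, *Mpped1*, *Ociad2* and *Ajap1* followed *Bok* in the order of their medians, 13.0, 10.4, 9.71 and 7.52 TPM, and the ranges of neighbours overlapped. *Wfs1* (4.05 to 7.69 TPM), *Fibcd1* (4.42 to 7.17 TPM), *Calb2* (3.66 to 8.0 TPM) and *Iyd* (3.34 to 6.24 TPM) were not separable in order.

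In ventral DG *Calb2* moved up to rank 2 or 3 of each sample (15.7 to 36.4 TPM). *Ociad2*, *Spock1* and *Mpped1* came after it by their medians, 18.5, 17.1 and 11.7 TPM, with overlapping ranges. *Fibcd1* and *Ajap1* shared ranks 6 and 7, *Wfs1* was at rank 8 and *Iyd* at rank 9 in each ventral sample.

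**Figure D4:**
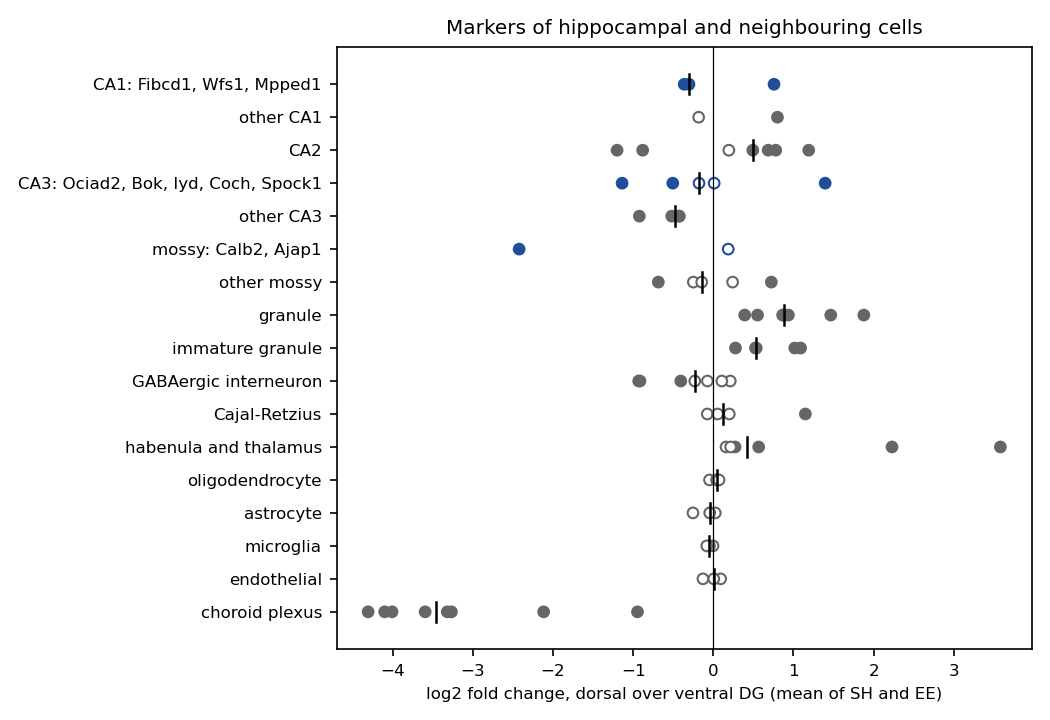
Log2 fold change of dorsal over ventral DG over both housings (horizontal axis) for each gene of the marker lists (rows), with the 10 markers in blue and other genes in grey. Filled points passed an FDR under 0.05 and the 20% limit, and vertical bars are medians of lists of 3 or more genes; granule cell genes are all on the dorsal side and choroid plexus genes all on the ventral side.

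Set beside markers of other cells in the punches, the 4 other CA3 genes and the granule cell genes differed between regions in opposite directions. Not all of the 5 CA3 markers went with the 4 other CA3 genes. *Iyd* had its higher level in dorsal DG, *Ociad2* and *Spock1* had theirs in ventral DG, and *Bok* and *Coch* did not pass both limits. The 8 granule cell genes were all higher in dorsal DG, with a median log2 fold change of 0.88. Their summed level was 1309 to 1455 CPM in dorsal and 535 to 759 CPM in ventral samples. The list includes *Lct*, which the paper names as a gene already known to be higher in dorsal granule cells. Its direction was therefore known beforehand, and position and granule cell content cannot be told apart in the sum. Choroid plexus genes were higher in ventral DG in 8 of 8 cases, with a median of -3.46. Of 6 habenula and thalamus genes 4 were higher in dorsal DG. Their summed level was 66.8 to 102 CPM in dorsal and 62.8 to 79.5 CPM in ventral samples. Among all tested genes 15.9% passed with the higher level in dorsal and 16.8% with the higher level in ventral DG. None of the genes of oligodendrocytes (4), astrocytes (3), microglia (3) or endothelium (3) passed over both housings. The shares of these cells in the punches, and their part in the levels of the 10 markers, were not tested.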

How the data were processed

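RNA-Seq of 20 samples was used, and samples of bisulfite or TAB sequencing were not used here. Groups and replicate numbers came from the labels. The submitters' processing notes name Trim Galore 0.4.0, STAR 2.5.1b, RSEM 1.2.30 and the genome build mm10. The authors deposited counts of fragments per gene without normalization, and the column of the reverse strand was used for tests. The expected count deposited by the authors for each gene was rounded to whole numbers and used as an alternative. TPM values deposited by the authors were used for the order of genes within a sample, because the 3 genes *Rn7s2*, *Rn7s1* and *Rn7sk* held 49.3% to 63.0% of the TPM of a sample. FPKM values deposited by the authors were not used. Symbols and coordinates (mm10) came from Gencode for 45968 of 46480 genes and for all listed genes. No other annotated gene overlapped any of the 10 markers.

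A gene was tested if 2 or more of 18 samples had over 10 counts (17040 genes). The quasi-likelihood test of edgeR 4.0.16 (R 4.3.3) was run after TMM, with 4 groups in a model without a block. Benjamini-Hochberg adjustment was over all tested genes, and a gene passed with an FDR under 0.05 if its change was 20% or more. The region test used the mean of the SH and EE differences. The SE is the size of the log2 fold change over the root of F. The paper names no replicate for the sample it excluded for *Xist*, and SH replicate 3 was taken to be it. The study says that dorsal and ventral samples came from the same mice but does not give the pairs by replicate number. Samples of equal number were taken as a pool. The correlation of their deviations from group means was -0.07 to 0.15 over 9 pools. No pair of samples in a group was identical (40 pairs). P values measure the spread between pools. Alternatives were DESeq2 1.42.0, RLE size factors, other filters, unstranded or expected counts, no fold limit, a joint test of both housings, all 20 samples, a block (the pool for regional tests and the replicate number for EE tests), and leaving out pools. Python 3.11.15, numpy 2.4.6, pandas 2.3.3 and matplotlib 3.10.9 were also used. The model was tested on simulated data.

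The 10 markers, the other lists and the tests were chosen with earlier results of these data known. All 10 markers were to be named, and of the other CA1, CA2, CA3 and mossy cell lists up to 3 genes a direction that passed with the largest change. *Man1a*, *Calcrl*, *Drd2*, *Csf2rb2* and *Prox1* were named after their values were seen. A listed marker of CA1 is not reported here.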

Additional observations from a re-analysis of the deposited data

Results flagged for a closer look

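In 40 sets of samples (10 markers in 4 groups), the highest or lowest sample was compared with the rest of its group by Dixon's ratio of gap to range, which chance passes in about 5% of sets. It was passed in 2. *Fibcd1* in ventral EE replicate 4 was at 41.3 CPM, while the rest of the group had 75.3 to 81.4 CPM, and the gap was 0.85 of the range. *Mpped1* in dorsal SH replicate 1 was at 48.7 CPM, while the rest had 68.7 to 71.1 CPM, and the gap was 0.89 of the range.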

How the results depend on the processing

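The number of markers that differed between regions over both housings was 7 under each other setting, except 9 with no fold change limit and 6 to 7 when a pool was left out (6 without SH replicate 1, and 6 without its dorsal sample alone, a setting chosen after its choroid plexus genes were seen). In SH alone it was 5 throughout, except 6 with no fold limit. In EE alone it was 7, except 9 with no fold limit, 6 in DESeq2 and 5 to 7 when a pool was left out. The number with an EE effect was 0 in dorsal DG under each setting but the replicate block, and 0 in ventral DG but for the block and no filter on low counts. Fits with the replicate number as a block called 1 marker in each region, *Bok*, with log2 fold changes of 0.28 (dorsal) and 0.30 (ventral), and without a filter on low counts *Bok* passed in ventral DG (1 marker). SH and EE samples share only a number, and the correlations of their deviations were 0.07 to 0.14. Of 8 samples 7 in dorsal and 3 in ventral DG correlated best with their own number. With the block the count of all genes called rose from 108 to 172 in dorsal and from 41 to 87 in ventral DG. In regional tests the block was the pool, and it changed no call.

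By mean level 4 markers were higher in dorsal DG, also as TPM and in 20 samples. By TPM *Bok* was even (log2 difference -0.0013) and *Coch* was at 0.23. The log2 difference of mean levels lay further toward dorsal DG by TPM than by CPM for each marker. *Fibcd1* was at -0.18 by TPM (-0.37 by CPM) and *Mpped1* at -0.13 (-0.31 by CPM), both below the 20% limit as TPM. *Spock1* was at -0.27 by TPM (-0.51 by CPM). Regional differences in TPM were not tested. Changes of sign fell on differences near 0. For *Coch* the regional value was -0.040 to 0.060 over both housings, -0.044 to 0.12 in SH and -0.10 to 0.054 in EE (0.026 with unstranded counts). EE effects of *Ajap1* were -0.00138 with the block in dorsal DG and -0.0058 to 0.064 over all settings there, and -0.051 to 0.011 in ventral DG. In ventral DG, *Calb2* was at 0.026 with the block and at -0.14 to 0.048 over all settings, and *Spock1* at -0.14 to 0.0099. The cause of these changes was not tested.

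The count of all genes called between regions was 5573, or 3474 when genes needed a TPM over 1 in 3 or more samples. For EE in dorsal DG it was 108, 70 without SH replicate 4 and 68 without dorsal SH replicate 1. For EE in ventral DG it was 41, 75 in DESeq2, 78 without a filter, 27 with the TPM filter, and 24, 18 and 26 without SH replicate 2, SH replicate 4 or EE replicate 3. For the difference of EE effects it was 1, 2 with the block, and 0 with the TPM filter or without any pool. *Coch* and *Iyd* had down to 81 and 87 fragments in a sample, which limits the precision of their levels.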
